A study of Mus musculus with 686 samples.

Results

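The microRNAs mmu-miR-221-3p and mmu-miR-222-3p were chosen by name from the miRNA count table, as 2 of its 1964 mature mouse miRNAs, and were followed over all 686 small RNA libraries. The libraries came from 13 tissues of BALB/cAnNTac female mice aged 3 or 8 months. Flight (FL) mice lived on the International Space Station, habitat ground control (HGC) mice were kept on Earth in the same hardware with matched temperature, humidity and carbon dioxide, and vivarium ground control (VGC) mice were kept in standard cages. Each arm had a live animal return subgroup (LAR, 114 FL, 113 HGC and 121 VGC libraries) and a subgroup killed during the mission (TERM, 115 FL, 114 HGC and 109 VGC libraries). LAR flight mice spent 39.5 days on the station and were collected 2 to 4 days after splashdown, after functional assays. TERM mice were killed 22 to 24 days after launch, on orbit or on the ground. LAR mice were anaesthetised with ketamine and xylazine, and their organs were dissected and frozen in liquid nitrogen within minutes. TERM mice had acepromazine added to these anaesthetics, and apart from the spleen their organs came from carcasses that were frozen whole and later thawed for 60 to 90 minutes. LAR and TERM thus differ in time, handling and this added drug together, and these cannot be told apart. A group of 1 tissue, arm and subgroup held 2 to 10 libraries, with the fewest in VGC TERM pancreas, and mice of both ages were pooled within it unless ages are named. Brown, gonadal, mesenteric and subcutaneous adipose tissue are written BAT, GAT, MAT and SCAT.

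Mature miRNAs are loaded into Argonaute proteins and pair through their seed, bases 2 to 8 from the 5′ end, with matching sites in messenger RNAs, whose translation and stability they lower. miR-221 and miR-222 are made from neighbouring hairpins on the X chromosome. They are best known from endothelial and vascular smooth muscle cells, where their described targets include the stem cell factor receptor Kit and the cell cycle inhibitor Cdkn1b (p27). Neurons, blood precursors and many epithelia also make them, so they are not restricted to vessels.

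The mature sequences show why both are treated as a single seed family. They are given 5′ to 3′ as RefSeq lists them, with the seed in capitals, and mmu-miR-1928 is the only other mature miRNA of the count table with this seed in the RefSeq table.
mmu-miR-221-3p: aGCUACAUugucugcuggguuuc
mmu-miR-222-3p: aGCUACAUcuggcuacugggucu
mmu-miR-1928: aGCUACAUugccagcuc
The first 8 bases of miR-221-3p and miR-222-3p are identical, and 11 of their 23 positions are identical in all, so reads of one can be told from reads of the other over the 3′ part. In GRCm38.p6, the build of the RefSeq table and not the GRCm39 build of the submitters' processing notes, mmu-miR-221-3p lies at chrX:19146307-19146329 and mmu-miR-222-3p at chrX:19146901-19146923, both on the minus strand. Their hairpins, Mir221 and Mir222, are 504 bases apart. mmu-miR-1928 had 2 reads in all, 1 in each of 2 libraries, so among the miRNAs with a RefSeq entry nearly every read with this seed came from miR-221-3p or miR-222-3p.

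Levels are given as counts per 1000000 miRNA counts of the library (CPM). The libraries held 181393 to 30469295 miRNA counts, with a median of 3875781. No library was at 0 for either miRNA. The fewest reads were 6 of miR-221-3p and 13 of miR-222-3p, and the medians were 442 and 650 reads. By mean CPM over the libraries, miR-222-3p stood at place 145 and miR-221-3p at place 185 of the 1964 miRNAs. The miRNA profile of 166 of the 686 libraries (24.2%) lay closer to another tissue than to the tissue on the label, among them 46 of 57 MAT, 20 of 60 BAT, 19 of 59 diaphragm and 0 of 25 brain libraries. miR-221 and miR-222 were left out of that comparison. Most of these libraries (119) came from 11 of the 44 sequencing pools. All libraries are reported under their label, with values without the 166 libraries beside the results they move most. All values come from bulk tissue, where fewer cells that make a miRNA and less of it per cell cannot be told apart.

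Both miRNAs were at their highest in brain, lung and kidney. The LAR brain libraries held 321 to 1163 CPM of miR-222-3p (median 913 CPM, n = 12), lung 116 to 1470 CPM (median 710, n = 30) and kidney 134 to 1075 CPM (median 561, n = 29). No other tissue had a LAR median above 246 CPM, which was that of SCAT. A middle range from 231 to 174 CPM followed in GAT, spleen, thymus and MAT, and the lowest medians lay between 139.5 and 110.5 CPM in pancreas, BAT, heart, diaphragm and liver. The place of MAT depended on which libraries were counted, as the 4 LAR MAT libraries nearest to the mixed MAT reference had a median of 331 CPM, next after kidney. In TERM the same 3 tissues led, with medians of 896 CPM in brain (n = 13), 556 CPM in lung (n = 28) and 596 CPM in kidney (n = 28).

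By its medians miR-221-3p was less abundant than miR-222-3p apart from liver and TERM pancreas, and it spread less over the tissues. Its LAR median was 281 CPM in lung (69 to 711 CPM), 196 CPM in brain (103 to 404 CPM) and 184 CPM in kidney (50 to 422 CPM). MAT (147 CPM), liver (128 CPM), spleen (123 CPM), heart (111 CPM), pancreas (106 CPM) and SCAT (104 CPM) lay between. Thymus (92.5 CPM), GAT (90.2 CPM), BAT (64.9 CPM) and diaphragm (60.1 CPM) were lowest. In the 4 LAR MAT libraries nearest to the mixed MAT reference the median was 199.98 CPM, between lung and brain. The highest tissue median was 2.22 log2 units above the lowest for miR-221-3p (lung over diaphragm) and 3.05 log2 units above it for miR-222-3p (brain over liver). Without the libraries with the profile of another tissue these spans were 2.83 and 3.10 log2 units, with the same tissues at both ends. Against the count total over 5 RNA classes in place of the miRNA counts alone, the spans were 4.62 and 5.27 log2 units. On that scale lung, brain and kidney still led for miR-222-3p, at 2.96, 2.76 and 2.74 log2 units above the middle tissue, lung and kidney led for miR-221-3p at 2.54 and 1.53 log2 units with brain (1.08) below heart (1.18) and liver (1.13), and pancreas was lowest for both.

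**Figure D1:**
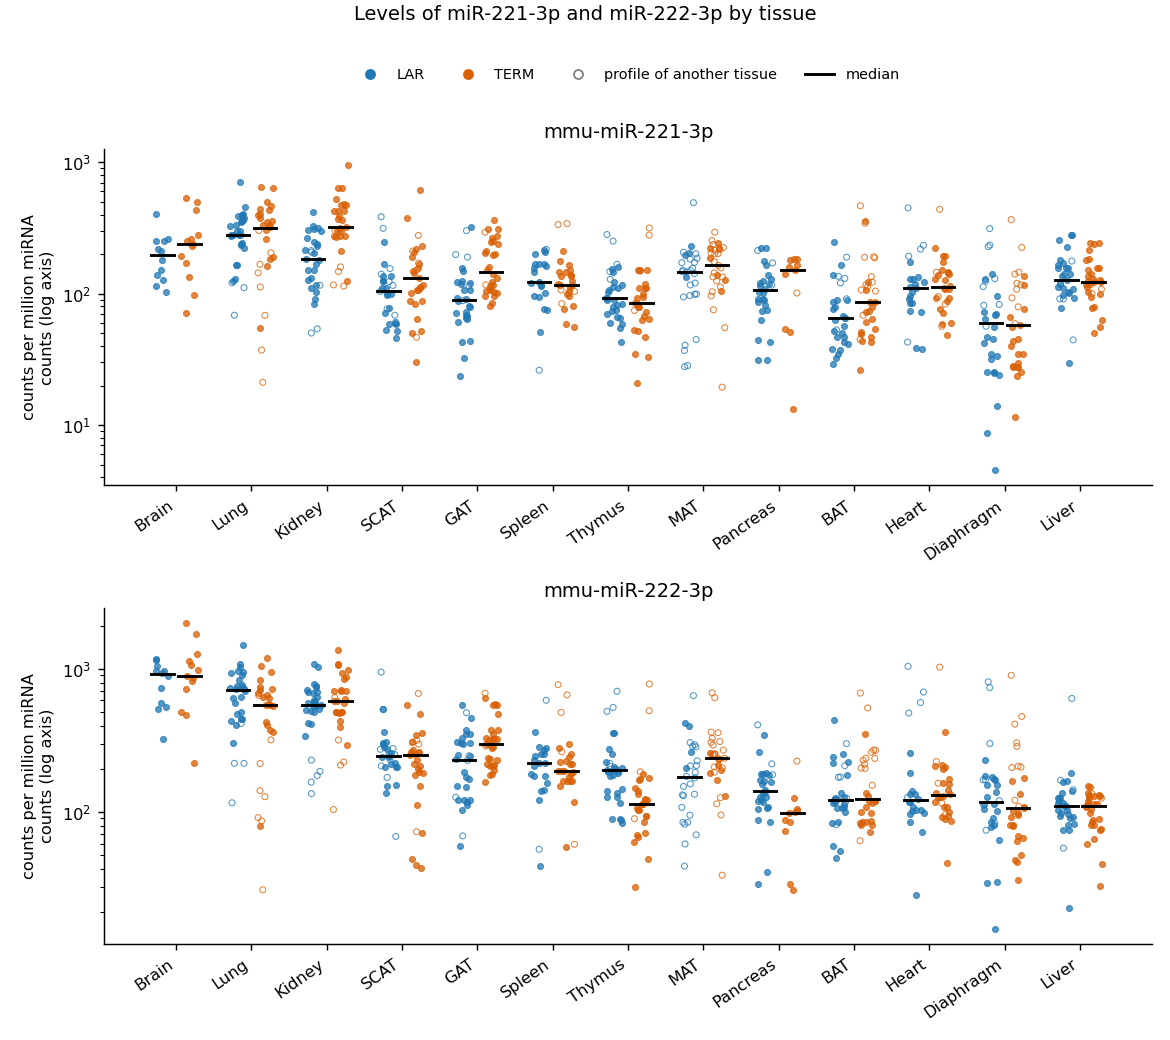
Levels in CPM (log axis) of miR-221-3p (top) and miR-222-3p (bottom) in each library, by tissue, in LAR (blue) and TERM (orange). Open points are libraries whose profile was closer to another tissue, and black bars are medians. Brain, lung and kidney stand highest for miR-222-3p, with LAR medians of 913, 710 and 561 CPM, and many of the points far from their tissue's median are open.

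The order of the tissues was set in LAR and each pair of neighbours in that order was tested in the TERM mice, which had no part in setting it (2-sided paired permutation test of log2(CPM + 1) over animals that gave both tissues, 24 tests, Benjamini-Hochberg adjusted). TERM brain came from mouse numbers that no other TERM tissue shares, so brain was compared over separate animals. In TERM, miR-222-3p was 1.15 log2 units higher in brain than in lung (pooled SD 1.11, 13 and 28 animals, permutation test adjusted p = 0.00618) and 1.51 log2 units higher in kidney than in SCAT (SD 1.36, higher in 24 of 27 animals, adjusted p = 0.00032). The mean difference between lung and kidney did not pass (-0.37 log2 units, SD 1.42, higher in lung in 12 of 26 animals, permutation test adjusted p = 0.3015). Without the libraries with the profile of another tissue kidney stayed above SCAT (1.89 log2 units, in 18 of 18 animals, adjusted p = 0.00048), while brain and lung no longer passed (0.59 log2 units, 13 and 20 animals, adjusted p = 0.079).

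Further down, 3 neighbours of the miR-222-3p order differed in TERM in the LAR direction. GAT was above spleen by 0.59 log2 units, spleen was above thymus by 1.04 log2 units and MAT was above pancreas by 1.30 log2 units (adjusted p = 0.0288, 0.00096 and 0.0156). A further 3 differed in the opposite direction. TERM SCAT lay below GAT by a mean of -0.59 log2 units, thymus below MAT by -0.91 and pancreas below BAT by -0.65 (adjusted p = 0.0023, 0.0036 and 0.0340). The mean differences between BAT and heart, heart and diaphragm, and diaphragm and liver did not pass (permutation test adjusted p = 0.758, 0.510 and 0.219). Without the libraries with the profile of another tissue, GAT against spleen, spleen against thymus and SCAT against GAT passed in the same direction (adjusted p = 0.0006, 0.0006 and 0.00365). Thymus and MAT (-0.91 log2 units, 6 animals), MAT and pancreas (1.42, 5 animals) and pancreas and BAT (-0.40, 6 animals) then did not pass (permutation test adjusted p = 0.0749, 0.115 and 0.375), and heart was above diaphragm (0.79 log2 units, adjusted p = 0.0196).

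For miR-221-3p the first places could not be separated. Lung and brain differed by 0.03 log2 units (pooled SD 1.05, permutation test adjusted p = 0.919) and brain and kidney by -0.50 log2 units (pooled SD 0.81, adjusted p = 0.121), the value being higher in kidney. Kidney was above MAT by 1.10 log2 units (SD 1.05, in 24 of 27 animals, adjusted p = 0.00032). From MAT down to thymus no neighbours differed, with adjusted p between 0.0844 and 0.756. GAT lay above thymus in TERM, in the direction opposite to LAR (-0.84 log2 units as thymus minus GAT, adjusted p = 0.00032). GAT was above BAT by a mean of 0.76 log2 units (SD 1.21, in 17 of 30 animals, permutation test adjusted p = 0.00618). BAT was above diaphragm by 0.63 log2 units (SD 1.39, in 21 of 29 animals, adjusted p = 0.0402). Without the libraries with the profile of another tissue kidney passed against brain (-0.72 log2 units as brain minus kidney, permutation test adjusted p = 0.0196), GAT kept its place above thymus and BAT (adjusted p = 0.00048 and 0.00391), and kidney against MAT (1.38 log2 units, higher in 6 of 6 animals, adjusted p = 0.0749) and BAT against diaphragm (0.58, adjusted p = 0.132) did not pass.

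The balance between both miRNAs differed between tissues. The ratio was taken as log2 of miR-221-3p over miR-222-3p, with 1 CPM added to each, and does not depend on how a library was scaled beyond that 1 CPM. The LAR median was -1.93 in brain, which corresponds to 3.82 times as much miR-222-3p as miR-221-3p, and no brain library of 25 was above 0. In liver the LAR median was 0.38 and 22 of 29 libraries held more miR-221-3p than miR-222-3p. The other tissues lay between in LAR, from -1.65 in kidney and -1.29 in SCAT to -0.46 in heart and pancreas. In TERM, pancreas had a higher median than liver, 0.69 with 8 of 11 libraries above 0 against 0.46 with 21 of 29. In the TERM mice the means of liver and brain differed by 2.25 log2 units (pooled SD 0.55, n = 29 and 13, 2-sided permutation test, p = 2e-05, the smallest 100000 resamples can give), and the ranges did not overlap, with liver from -0.53 to 0.90 and brain from -3.32 to -1.17. This pair was chosen as the ends of the LAR order. Within a tissue the ratio also varied, with an SD of 0.41 to 0.86 log2 units over the LAR libraries.

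**Figure D2:**
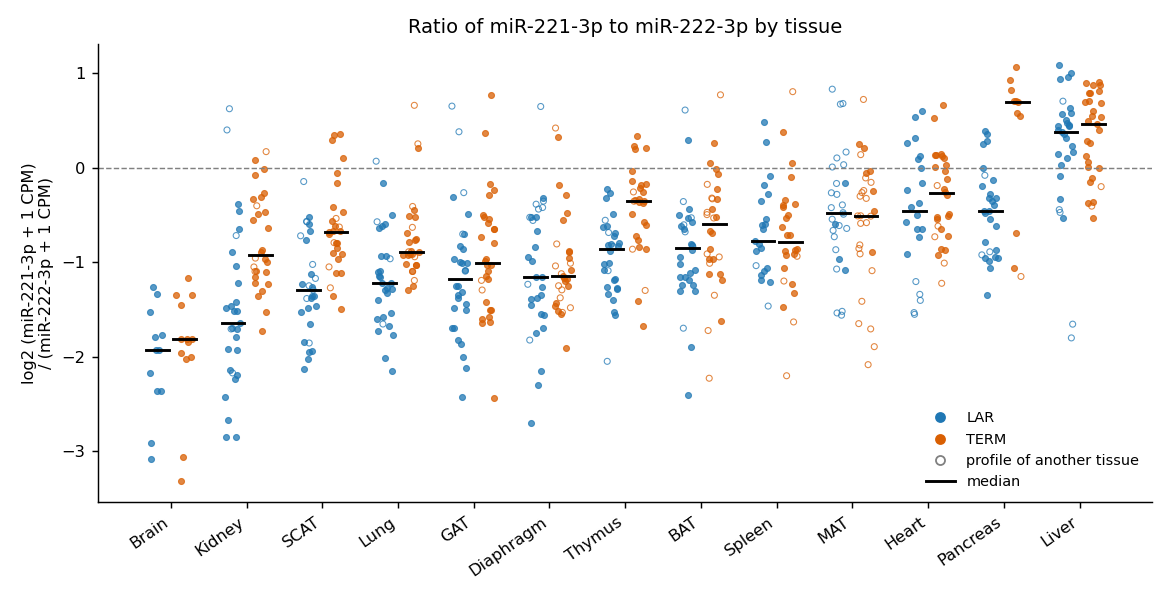
Log2 ratio of miR-221-3p to miR-222-3p in each library by tissue, ordered by the LAR median, in LAR (blue) and TERM (orange), with open points for libraries whose profile was closer to another tissue and black bars for medians. The dashed line marks equal levels. Brain is at the low end, with a LAR median of -1.93, and liver at the high end of LAR, with a median of 0.38. The TERM median of pancreas (0.69) lies above that of liver (0.46). TERM lies above LAR in kidney, SCAT, lung, thymus and pancreas.

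The ratio also separated LAR from TERM. A comparison of both subgroups in each tissue, chosen after the levels had been seen, found a lower ratio in LAR in 5 of 13 tissues (2-sided permutation test of the means, Benjamini-Hochberg adjusted over 13 tissues). In kidney the mean was -1.51 in LAR (SD 0.86, n = 29) and -0.78 in TERM (SD 0.51, n = 28), a difference of -0.73 log2 units (adjusted p = 0.00234). In SCAT it was -1.25 in LAR (SD 0.52, n = 29) and -0.64 in TERM (SD 0.49, n = 29), a difference of -0.61 (adjusted p = 0.00039). Thymus differed by -0.50 log2 units (adjusted p = 0.00039), lung by -0.43 (adjusted p = 0.00487) and pancreas by -0.75 (28 and 11 libraries, adjusted p = 0.0051). The 11 TERM pancreas libraries were all from 3-month mice, while 15 of the 28 LAR libraries were. In the 3-month libraries alone kidney, SCAT, thymus and pancreas passed, with a difference of -0.77 log2 units in pancreas (15 and 11 libraries, adjusted p = 0.0268), while lung did not (-0.43, 15 and 14 libraries, adjusted p = 0.139). The individual values of LAR and TERM overlapped in each of these tissues.

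Markers of cell types also differed between LAR and TERM in some of these tissues, in a list of 28 miRNAs that mark cell types. By edgeR 5 of 28 passed in lung, 6 of 28 in thymus, 6 of 28 in pancreas, 1 of 27 in SCAT and 0 of 28 in kidney, where 10.3% of all tests over the 13 tissues passed. Of all miRNAs of the same fits, 57 of 636 passed in lung, 118 of 648 in thymus, 145 of 526 in pancreas, 22 of 552 in SCAT and 0 of 592 in kidney. Of the markers that passed, 2 were higher and 3 lower in LAR lung. In thymus and in pancreas 2 were higher and 4 lower in LAR, and in SCAT 1 was lower. The hepatocyte miR-122-5p was lower in LAR lung, thymus and pancreas (log2 fold changes -3.85, -1.94 and -2.08). It held 8.37 to 583 CPM in LAR lung and 13.9 to 360672 CPM in TERM lung, with medians of 63.2 and 184 CPM. Striated muscle miR-499-5p was lower in LAR thymus (-4.01) and heart muscle miR-208a-3p higher in LAR pancreas (2.87). The exocrine pancreas miR-216a-5p and miR-217-5p were higher in LAR lung (2.03 and 2.70). The blood lineage miR-150-5p and erythroid miR-144-3p were higher in LAR thymus (0.94 and 0.79), and the smooth muscle miR-143-3p was lower in LAR pancreas (-0.96). Their part in the ratio was not tested, and the values without the libraries with the profile of another tissue follow.

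In these 5 tissues the mean was lower in LAR than in TERM in each of the 3 arms. In kidney the differences were -0.77 in FL, -1.0 in HGC and -0.38 in VGC. In SCAT they were -0.95, -0.46 and -0.47. The smallest was -0.24, in FL lung. With the labels exchanged only within arms the same 5 tissues passed, and with the labels exchanged only within the 8 plates kidney, SCAT, thymus and pancreas passed (adjusted p between 0.00039 and 0.0222) while lung did not (-0.34 log2 units, adjusted p = 0.0575). Without the libraries with the profile of another tissue the same 5 tissues passed and GAT joined them (-0.41 log2 units, 25 and 28 libraries, adjusted p = 0.0353). Over all GAT libraries 9 of 27 cell type markers differed between LAR and TERM by edgeR, beside 66 of 533 miRNAs, among them the smooth muscle miR-145a-5p (log2 fold change -1.28) and miR-143-3p (-0.51), the muscle miR-206-3p (2.71) and miR-192-5p of kidney and gut (2.65), and their part in the ratio was not tested.

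Brain, heart, liver, spleen and diaphragm had differences between -0.15 and 0.06 log2 units that did not pass. In spleen the means were -0.67 in LAR (n = 21) and -0.73 in TERM (n = 26), and the difference of 0.06 log2 units had a permutation test adjusted p of 0.712. Spleen was dissected fresh in both subgroups, put in RNAlater in TERM and snap frozen in LAR. TERM brain, heart, liver and diaphragm came from thawed carcasses, and the part of handling in the ratio was not tested. BAT, GAT and MAT did not pass either (-0.21, -0.20 and 0.13 log2 units). In the libraries with the profile of their own tissue the difference was -0.36 log2 units in BAT (23 and 17 libraries), -0.33 in diaphragm (21 and 19 libraries) and, with the opposite sign, -0.53 in MAT (4 and 7 libraries), and none of these passed (permutation test adjusted p = 0.067, 0.118 and 0.118). An effect in some tissues and not in others was not tested as a difference between tissues.

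For the single miRNAs, LAR was compared with TERM across all miRNAs of a tissue with edgeR, in a model with the arms as terms. Of all tests over the 13 tissues, 10.3% passed an adjusted p of 0.05, and none of the 26 tests of miR-221-3p and miR-222-3p did (2 had an unadjusted p under 0.05). Kidney miR-221-3p came closest. It ranged from 50 to 422 CPM with a median of 184 CPM in LAR and from 114 to 961 CPM with a median of 319 CPM in TERM. The ranges overlapped, with the LAR medians of FL, HGC and VGC at 183, 160 and 213 CPM and the TERM medians at 295, 426 and 304 CPM. The log2 fold change of LAR over TERM was -0.73 (SE 0.19, edgeR adjusted p = 0.0624). It passed in 7 of 25 alternative analyses, among them without the libraries with the profile of another tissue (-0.82, SE 0.17, adjusted p = 0.00565), with plate as a term (-0.78, SE 0.18, adjusted p = 0.034) and with DESeq2 (adjusted p = 0.0171). With library sizes taken as the count total over 5 RNA classes it was -0.33 (SE 0.25, adjusted p = 0.299).

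Kidney miR-222-3p was 134 to 1075 CPM (median 561) in LAR and 104 to 1352 CPM (median 596) in TERM, and its log2 fold change was -0.05 (SE 0.18, adjusted p = 0.933). The other strand of the miR-221 hairpin, mmu-miR-221-5p, had medians of 28.4 CPM in LAR and 28.7 CPM in TERM kidney (log2 fold change -0.11, SE 0.17, adjusted p = 0.823). The ratio above is the direct test of miR-221-3p against miR-222-3p in these libraries. In thymus, SCAT, lung and pancreas the log2 fold change was negative for miR-221-3p (-0.08, -0.39, -0.06 and -0.30) and positive for miR-222-3p (0.36, 0.15, 0.34 and 0.54), with SE between 0.19 and 0.30 and adjusted p of 0.16 or more.

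**Figure D3:**
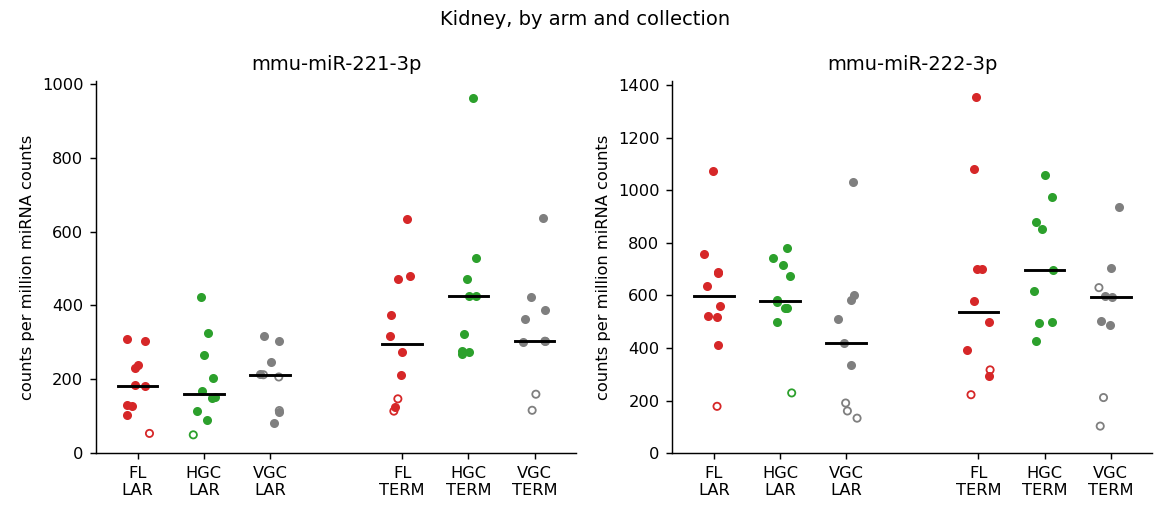
Levels in CPM of miR-221-3p (left) and miR-222-3p (right) in each kidney library by arm (FL red, HGC green, VGC grey) and subgroup, with black bars for medians and open points for libraries whose profile was closer to another tissue. The miR-221-3p medians are 183, 160 and 213 CPM in LAR and 295, 426 and 304 CPM in TERM, and those of miR-222-3p are 599, 580 and 419 CPM in LAR and 538, 695 and 593 CPM in TERM.

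Flight was compared with the habitat control, which shares its housing. In LAR, 1.67% of all tests over the 13 tissues passed and none of the 26 tests of both miRNAs did. Their log2 fold changes of FL over HGC ran from -1.02 to 0.95 (SE 0.25 to 0.53), 13 were above 0, and 2 had an unadjusted p under 0.05. In TERM, 0.492% of all tests and none of the 26 passed. There the changes ran from -1.0 to 0.92 (SE 0.23 to 0.64), 12 were above 0, and 3 had an unadjusted p under 0.05. In data simulated from the 30 LAR lung libraries of all arms, the test of FL against HGC found 67% of miRNAs changed by 2 times. It found 97% of those changed by 4 times. In data simulated from the 12 LAR brain libraries of all arms, it found 6% and 53%. A change of 2 times in brain was thus mostly not detectable at this group size.

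BAT miR-221-3p showed the smallest adjusted p of flight against habitat control. The FL libraries held 29 to 249 CPM (median 72, n = 10), the HGC libraries 33 to 92 CPM (median 47, n = 10) and the VGC libraries 43 to 166 CPM (median 88, n = 10). The groups overlapped, and only 4 FL libraries lay above every HGC library. The log2 fold change of FL over HGC was 0.95 (SE 0.35, edgeR adjusted p = 0.0701), against 0.14 (SE 0.31) for miR-222-3p in the same libraries. It passed with DESeq2 (adjusted p = 0.04996) and with the count total over RNA classes (1.34, adjusted p = 0.0294). It was 0.77 (SE 0.33, adjusted p = 0.442) without the libraries with the profile of another tissue, 3 of them in FL and 1 in HGC, and 0.65 (adjusted p = 0.781) with plate as a term. Over all alternatives it ran from 0.47 to 1.34, and without the 11 pools its edgeR adjusted p was 0.998. In TERM BAT it was 0.03 (SE 0.44). In the same comparison of LAR BAT 6 of 27 cell type markers passed, 5 of them higher in FL, beside 33 of all 540 miRNAs tested. The log2 fold changes were 6.11 for the hepatocyte miR-122-5p, 4.87 and 3.87 for miR-192-5p and miR-194-5p of kidney and gut, 3.02 for the blood cell miR-142a-3p and -6.39 for the neuronal miR-124-3p. The hepatocyte marker ran from 14.9 to 287175 CPM in FL and from 62.9 to 1634 CPM in HGC, with medians of 465 and 476 CPM, and the sum of the kidney and gut markers from 425 to 107632 CPM and from 409 to 900.5 CPM. Their part in the change of miR-221-3p was not tested.

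MAT, thymus and heart had other large values. In LAR heart miR-222-3p changed by -0.92 (SE 0.53, edgeR adjusted p = 0.388). In LAR MAT, miR-221-3p was 37 to 204 CPM in FL (median 97, n = 9) and 99 to 493 CPM in HGC (median 161, n = 10), a log2 fold change of -1.02 (SE 0.34, edgeR adjusted p = 0.514). In TERM MAT, miR-222-3p was 95 to 679 CPM in FL (median 253) and 126 to 258 CPM in HGC (median 206), a change of 0.92 (SE 0.40, adjusted p = 0.591). Most MAT libraries carried the profile of another tissue, and over all alternatives these values ran from -1.16 to 0.33 and from -0.30 to 2.21, with both signs among them. In TERM thymus both miRNAs were lower in FL, miR-221-3p with 21 to 111 CPM against 64 to 317 CPM and miR-222-3p with 46 to 183 CPM against 89 to 781 CPM (log2 fold changes -0.99, SE 0.39, and -1.0, SE 0.48, edgeR adjusted p = 0.355 and 0.409). The highest HGC library was 1 of 2 HGC libraries with the profile of another tissue. Without those the HGC range of miR-222-3p was 106 to 173 CPM, and the changes were -0.59 (SE 0.27) and -0.21 (SE 0.29), with adjusted p of 0.678 and 0.927. Over all alternatives they ran from -1.12 to -0.36 and from -1.15 to -0.10. In LAR thymus the changes were 0.29 and 0.57.

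**Figure D4:**
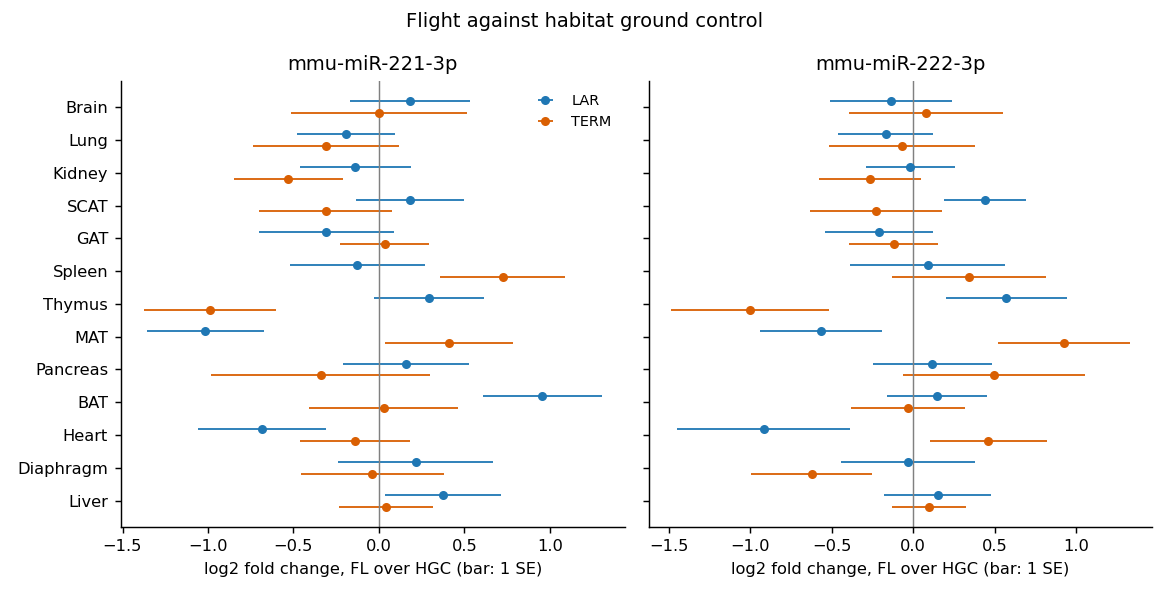
Log2 fold change of FL over HGC with 1 SE for miR-221-3p (left) and miR-222-3p (right) in each tissue, in LAR (blue) and TERM (orange), from edgeR. Values run from -1.02 to 0.95 in LAR and from -1.0 to 0.92 in TERM, and none of the 52 passed an adjusted p of 0.05.

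The other comparisons of the arms also gave no call. For FL against VGC, 0.663% of all tests passed in LAR and 0.796% in TERM, and for HGC against VGC 0.187% and 0.391%, while none of the 26 tests of both miRNAs passed in any of the 4. The lowest adjusted p was 0.284, for miR-222-3p in LAR SCAT, where FL was above VGC by 0.60 log2 units (SE 0.25, 207 to 947 CPM against 151 to 297 CPM). In LAR heart miR-222-3p was 26 to 126 CPM in FL (n = 6) and 98 to 1039 CPM in VGC (n = 10), a change of -1.07 (SE 0.49, adjusted p = 0.286). The 7 VGC libraries with the profile of heart held 98 to 187 CPM, and without the libraries with another profile the change was -0.56 (SE 0.39, adjusted p = 0.958). These comparisons share the FL, HGC or VGC libraries with each other. The difference of the flight effect between LAR and TERM was tested directly as an interaction, where 1.67% of all tests passed and none of the 26 did. Its values ran from -1.48 for miR-222-3p in MAT (SE 0.56, adjusted p = 0.413) to 1.48 for miR-222-3p in thymus (SE 0.59, adjusted p = 0.158). miR-221-3p was at -1.4 in MAT and 1.21 in thymus, and miR-222-3p at -1.39 in heart. Without the libraries with the profile of another tissue the 2 values in MAT were 0.31 and 1.07, of the opposite sign, and those of miR-222-3p in thymus and heart 0.47 and -0.67. For miR-221-3p in thymus the edgeR adjusted p was then 0.566, and its values over all alternatives ran from 0.60 to 1.43.

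The ratio did not separate flight from habitat control in any tissue. In LAR the difference of FL from HGC ran from -0.48 log2 units in MAT to 0.59 in BAT. In BAT the means were -0.60 in FL (SD 0.47, n = 10) and -1.19 in HGC (SD 0.55, n = 10; permutation test p = 0.00856, adjusted over 13 tissues p = 0.111). In TERM it ran from -0.42 in pancreas to 0.45 in diaphragm, with adjusted p of 0.728 or more.

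Age was compared within LAR and within TERM, with the arms as terms. LAR brain came from 3-month mice alone, and so did all 11 TERM pancreas libraries, so 12 tissues entered each comparison. In LAR, 0.625% of all tests passed and none of the 24 tests of both miRNAs did, with log2 fold changes of 8 over 3 months from -0.31 to 0.52 and none with an unadjusted p under 0.05. In TERM, 3.21% of all tests and none of the 24 passed, with changes from -0.41 to 1.06 and 5 with an unadjusted p under 0.05. The interaction of age with flight gave 0.128% of all tests in LAR and 1.39% in TERM, and none of the 24 in each. In LAR its values ran from -1.76 for miR-221-3p in kidney (SE 0.58, edgeR adjusted p = 0.14) to 0.92, and in TERM from -1.76 for miR-221-3p in BAT (SE 0.88, adjusted p = 0.294) to 1.34 for miR-221-3p in brain (SE 1.06, adjusted p = 0.99974). The lowest adjusted p in TERM was 0.238, for miR-222-3p in GAT (1.26, SE 0.51).

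TERM spleen showed the largest age difference. miR-222-3p was 57 to 242 CPM at 3 months (median 175, n = 13) and 153 to 774 CPM at 8 months (median 254, n = 13), a log2 fold change of 1.06 (SE 0.31, edgeR adjusted p = 0.0919). The 3 highest libraries, at 495, 656 and 774 CPM, were all 8 months old, and all 3 were among the 5 TERM spleen libraries with the profile of another tissue. Without these libraries the ranges were 57 to 242 CPM and 153 to 297 CPM, and the change was 0.23 (SE 0.19, adjusted p = 0.635). DESeq2 on all libraries called it (1.10, SE 0.32, adjusted p = 0.0286).

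The 5p strands of both hairpins were far lower than the 3p strands. The tissue medians of mmu-miR-221-5p ran from 4.51 CPM in TERM diaphragm to 31.0 CPM in LAR lung, and those of mmu-miR-222-5p from 0.62 CPM in LAR diaphragm to 7.92 CPM in TERM kidney. Over the 26 medians of tissue and subgroup, Pearson's r of log2(CPM + 1) with miR-221-3p was 0.85 for its own 5p strand and 0.79 for miR-222-3p. With miR-222-3p it was 0.86 for mmu-miR-222-5p and 0.94 for mmu-miR-221-5p. These are descriptions over medians that share their library totals. Neither 5p strand passed in any comparison of arms, ages or subgroups.

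As the pair is best known from vessels, its levels were set beside miRNAs of vessel wall cells, the endothelial miR-126a strands and the smooth muscle miR-143-3p and miR-145a-5p, in a list taken with earlier results known. Over the same 26 medians r of miR-221-3p was 0.19 with miR-126a-3p, 0.09 with miR-126a-5p, 0.08 with miR-143-3p and -0.02 with miR-145a-5p. For miR-222-3p r was 0.03, -0.16, -0.15 and -0.11. Spearman's rho over the same medians was 0.13, 0.23, 0.35 and 0.12 for miR-221-3p and 0.22, 0.15, 0.26 and 0.37 for miR-222-3p, so the sign of several of these weak values depended on the measure. Brain had the highest miR-222-3p and the lowest miR-126a-3p (LAR median 3746 CPM) and miR-143-3p (2993 CPM) of the 13 tissues, while lung was high in all (51784 CPM of miR-126a-3p and 41856 CPM of miR-143-3p). BAT and heart came next in miR-126a-3p (23128 and 21823 CPM) and had 122 and 121 CPM of miR-222-3p. In FL against HGC none of the 52 tests of these 4 vessel wall miRNAs passed in LAR or in TERM, and in LAR against TERM 5 of 52 did, where 10.3% of all tests passed.

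**Figure D5:**
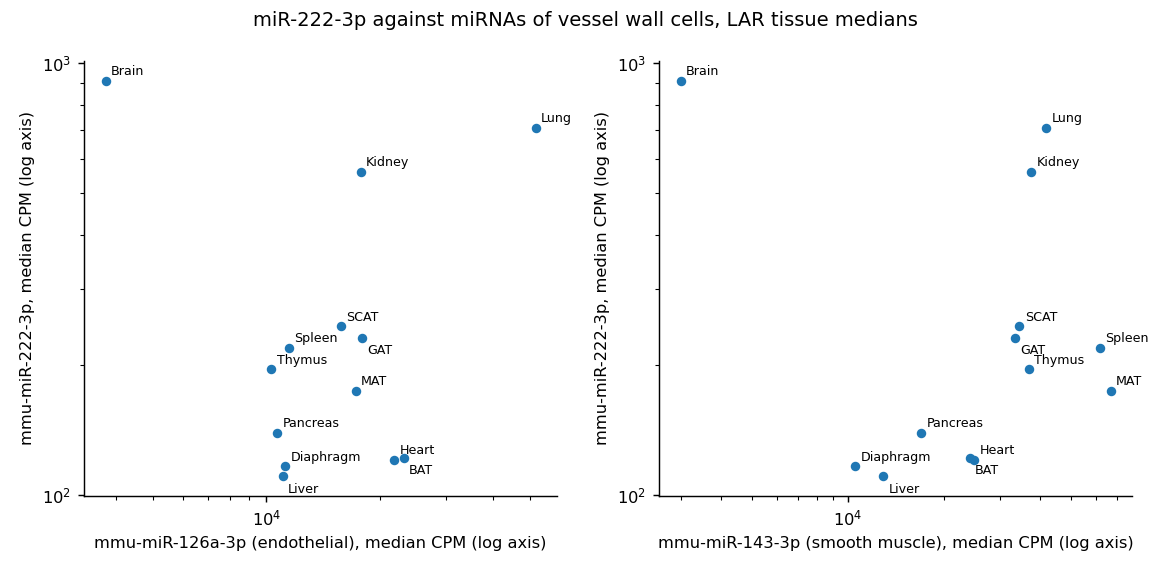
LAR tissue medians of miR-222-3p (CPM, log axis) against those of the endothelial miR-126a-3p (left) and the smooth muscle miR-143-3p (right; both CPM, log axes), 1 point for each of the 13 tissues. Brain has the most miR-222-3p (913 CPM) and the least of both vessel wall miRNAs (3746 and 2993 CPM).

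The miRNAs whose tissue pattern was most like the pair were named by a fixed rule, the 5 highest Pearson's r of log2(CPM + 1) over the 26 medians among 432 miRNAs with a mean of at least 10 CPM, with both strands of miR-221 and miR-222 left out. For miR-222-3p they were mmu-miR-92b-3p (r = 0.89), mmu-miR-872-3p (0.88), mmu-miR-331-3p (0.88), mmu-miR-674-5p (0.84) and mmu-miR-99b-3p (0.83). For miR-221-3p they were mmu-miR-187-3p (0.79), mmu-miR-326-3p (0.76), mmu-miR-872-3p (0.76), mmu-miR-872-5p (0.75) and mmu-miR-26a-5p (0.74). mmu-miR-872-3p stood in both lists.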

How the data were processed

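Small RNA libraries of 13 tissues were made with the MGIEasy kit, without molecular identifiers. The authors mapped reads to GRCm39 and miRBase with miRMaster and deposited expected counts per miRNA, of which 0.79% were not whole (none for the members), and counts of tRNA, rRNA, snRNA and snoRNA features, whose sum with the miRNA counts gave the total over 5 RNA classes. Counts were rounded for the count tests. Groups, arms and mouse numbers were taken from the sample titles, ages from the age label, and pools and plates from the study's sample sheet. Each tissue was fitted with edgeR 4.0.16 (quasi-likelihood test, TMM, filterByExpr) over 409 to 831 miRNAs, in R 4.3.3, with Benjamini-Hochberg adjustment over all miRNAs of the fit. SE is the log2 fold change over the square root of F. Arms were compared within LAR and within TERM. Ages, subgroups and interactions had the arms as terms. Ratios and neighbouring tissues were tested by permutation in scipy (exact below 10 values in a group, otherwise 100000 resamples) with 1 CPM added. TERM brain shared no mouse number with other TERM tissues, so its pairs were tested unpaired instead of paired.

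A library's tissue profile was the correlation of 726 miRNAs that differ between tissues with each tissue's median, without the miR-221 and miR-222 strands. The members and lists were chosen with earlier results of these data known. Named miRNAs were the members, their 5p strands, miRNAs of the same seed, vessel wall miRNAs and the 5 most alike in tissue pattern. Alternatives were no TMM, the total over RNA classes, DESeq2 1.42.0, no filter, age or plate as a term, a replicate block, a Wilcoxon test, the rule of an absolute log2 fold change over 1 with Cohen's d over 0.5, other pseudocounts, and leaving out mouse numbers, libraries, pools or, for the ratio, 8-month mice. Nothing says that libraries of a group are technical copies, and mouse numbers name separate animals. Most of the 83 animals gave several tissues, so tissues are not independent. The edgeR step was tested on simulated data. Intervals, SE and low counts cover the spread between these libraries only.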

Additional observations from a re-analysis of the deposited data

Results flagged for a closer look

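Of 154 sets of 4 to 10 libraries (1 miRNA in 1 tissue, arm and subgroup), 25 held a highest or lowest library that stood apart from the rest by Dixon's gap test on the log2 scale, where chance gives about 1 in 20. The 25 values came from 20 libraries, 5 of which were set apart for both miRNAs, and 15 of the 25 values (12 libraries) had the profile of another tissue. All values are CPM.

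High values in libraries with the profile of another tissue numbered 9. For miR-222-3p they were diaphragm FL LAR replicate 2 (738, next 171), diaphragm VGC TERM replicate 12 (464, next 120), heart FL TERM replicate 14 (1026, next 208), liver VGC LAR replicate 14 (620, next 143), spleen FL TERM replicate 11 (656, next 263) and thymus HGC TERM replicate 14 (781, next 173). For miR-221-3p they were diaphragm VGC TERM replicate 12 (225, next 65.9), MAT HGC LAR replicate 13 (493, next 232) and spleen VGC TERM replicate 13 (336, next 167).

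Low libraries with the profile of another tissue were kidney HGC LAR replicate 1 (miR-222-3p 230, next 499), lung FL LAR replicate 14 (miR-221-3p 121, next 233, and miR-222-3p 116, next 415), MAT VGC TERM replicate 16 (miR-221-3p 19.5, next 96.3, and miR-222-3p 36.0, next 114) and spleen HGC LAR replicate 16 (miR-221-3p 26.1, next 96.8).

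The other 10 values came from libraries with the profile of their own tissue. Brain FL TERM replicate 17 held 220 of miR-222-3p against 1064 or more in the other 3 libraries. Heart FL LAR replicate 12 held 26.2 of miR-222-3p, next 72.4. In liver, HGC LAR replicate 2 was low in both miRNAs (29.6 of miR-221-3p and 21.4 of miR-222-3p, next 77.4 and 74.9), and FL TERM replicate 2 (43.4, next 84.4) and HGC TERM replicate 3 (30.2, next 74.7) were low in miR-222-3p. In pancreas, HGC TERM replicate 3 was low in both (13.2 and 28.5, next 142 and 73.8, from 6 and 13 reads), VGC LAR replicate 3 was low (38.1, next 108) and HGC LAR replicate 14 high (342, next 166) in miR-222-3p.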

How the results depend on the processing

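In the main analysis no test of miR-221-3p or miR-222-3p passed in any of the 12 comparisons of arms, ages, subgroups or interactions, and most alternatives also gave 0 calls. The share of all tests that passed under the same setting stands beside each count. With DESeq2, 1 call appeared in FL vs. HGC in LAR (BAT, 2.62% of all tests), 1 in 8 vs. 3 months in TERM (spleen, 5.84%) and 1 in LAR vs. TERM (kidney, 13.6%). With the count total over RNA classes, 1 appeared in FL vs. HGC in LAR (BAT, 4.08%), 2 in 8 vs. 3 months in TERM (SCAT, 6.13%), 3 in age by flight in TERM (BAT and GAT, 4.51%) and 7 of 26 in LAR vs. TERM (liver, lung, pancreas and thymus, 25%). The Wilcoxon test on that scale gave 1 in FL vs. HGC (4.48%) and 1 in FL vs. VGC (0.951%) in LAR, both GAT miR-222-3p. The main edgeR values there were -0.21 (SE 0.33) and 0.30 (SE 0.33), with edgeR adjusted p = 0.916 and 0.727. Without TMM, 1 appeared in 8 vs. 3 months in TERM (heart, 3.1%) and 2 in LAR vs. TERM (GAT and kidney, 10.8%). For LAR vs. TERM, plate as a term gave 1 (kidney, 9.33%), leaving out libraries with the profile of another tissue 3 (GAT, kidney and thymus, 10.7%) and leaving out the 11 pools 2 (GAT and kidney, 14%). The cause of these moves was not tested.

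Leaving out each mouse number in turn gave 0 to 1 calls in LAR vs. TERM (without 1, 4, 5 or 16) and 0 to 1 in 8 vs. 3 months in TERM (without 16), and 0 in the other 10. Mouse numbers name different animals in each arm, so same-numbered libraries were taken to share only a number. The median correlation of their deviations was -0.01 in LAR and 0.07 in TERM, against 0.01 in both for other pairs. In LAR it was over 0.1 in 126 of 334 same-numbered and 1150 of 2875 other pairs. In TERM this held for 147 of 319 and 1123 of 2764. The replicate block gave 0 calls in the 6 comparisons of the arms. The fold and effect-size rule gave 0 calls in FL vs. HGC.

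The span from the highest to the lowest tissue median moved to 4.62 (miR-221-3p) and 5.27 log2 units (miR-222-3p) on the total over RNA classes. The count of neighbouring tissues that differed was 12 of 24, and 8 without the libraries with another tissue's profile, where fewer animals entered. The ratio between flight and habitat control passed in 0 tissues in LAR and in TERM by the permutation test (1 and 0 at an unadjusted p under 0.05), and in 0 with 10 CPM added and without those libraries. The ratio between LAR and TERM passed in 5 tissues, in 5 within arms, in 4 within plates, in 4 in the 3-month libraries alone and in 6 without the libraries with another tissue's profile, all chosen after seeing the data.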

Other observations

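The levels of both miRNAs in the 166 libraries with the profile of another tissue were set beside the medians of the remaining libraries. miR-222-3p was nearer to the median of the tissue of the profile than to that of the tissue on the label in 119 of the 166, and miR-221-3p in 112. Where both medians were at least 1 log2 unit apart, this held for 72 of 91 libraries for miR-222-3p (median distance 0.48 log2 units to the tissue of the profile and 1.6 to the tissue on the label) and for 51 of 67 for miR-221-3p (0.42 and 1.39). The profile had been taken without the strands of miR-221 and miR-222. These counts describe the libraries and carry no test.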
